A study of Mus musculus with 6 samples.

Results

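Claudins are the membrane proteins that form the strands of tight junctions, and 10 of their genes are described here in mouse embryonic stem cells with and without the Tet enzymes: Cldn3, Cldn4, Cldn5, Cldn6, Cldn7, Cldn9, Cldn12, Cldn14, Cldn15 and Cldn23. The members were taken by name. All 12 array probes that carry 1 of these 10 names were used, out of 55681 probes. The list was proposed with the TKO and WT values of these arrays in view, and the members are the claudin names on the array that passed the detection filter, apart from Cldn25, whose probe RefSeq assigns to another gene, Cldnd1. The signal differences of the members between the groups are therefore a description, with no test.

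The study compared RNA of 3 wild-type dishes (WT) with RNA of 3 dishes of cells in which Tet1, Tet2 and Tet3 are knocked out (TKO), on 6 one-colour Agilent arrays. The WT cells are the line BJ FF2 ES, and the TKO cells were derived from it. Both groups were kept in 2i medium on feeder cells made from mouse embryos, were grown at the same time, and were moved to matrigel without feeders before collection, with RNA from a single dish for each sample. The labels do not give the number of TKO clones, the exons altered, or the age or sex of the source embryo. Adjusted p-values therefore measure only the spread between dishes of 1 WT line and its TKO derivative, which may be technical.

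Claudins span the membrane 4 times, and their extracellular loops bind claudins of the neighbouring cell. Some, such as Cldn3 and Cldn5, seal the space between cells, while others, such as Cldn15, form pores that let ions pass, so the mixture of claudins sets how leaky an epithelium is. In embryonic stem cells and the early embryo, Cldn4, Cldn6 and Cldn7 are known as genes of the first epithelium and of the epiblast. Tet enzymes oxidise 5-methylcytosine in DNA, and methylation itself was not measured on these arrays.

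Signals are given below on the log2 scale after subtracting the array's own 75th percentile, which lay between 366.9 and 412.9 intensity units. Every difference is TKO minus WT over 3 dishes a group (n = 3). From 51.92% to 58.49% of an array's spots passed as well above background, and none (0) was saturated. Array row 1 of the slide held all 3 WT arrays with TKO replicate 1, and row 2 held TKO replicates 2 and 3. Negative controls had a standard deviation of 2.24 to 2.52 intensity units in row 1, against 3.16 and 3.22 in row 2. Tet1 fell by 1.37 ± 0.043 (SE; adjusted p = 6.87e-06 in limma) and Tet2 fell by 2.93 ± 0.054 (adjusted p = 1.98e-06), while Tet3 differed by -0.24 ± 0.098 (adjusted p = 0.0842). A probe outside the altered exons checks nothing about the knockout. All 9 embryonic stem cell markers were well above background on all 6 arrays.

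The 250 bases upstream of the RefSeq starts of Cldn5, Cldn6, Cldn4 and Cldn3, claudins that differed most between the groups and have a single window here, are shown on GRCm38.p6 to give the DNA in which CpG sites, the substrate of methylation and of the Tet enzymes, lie. Capitals mark each CpG.
Cldn5, chr16:18776597-18776846, plus strand: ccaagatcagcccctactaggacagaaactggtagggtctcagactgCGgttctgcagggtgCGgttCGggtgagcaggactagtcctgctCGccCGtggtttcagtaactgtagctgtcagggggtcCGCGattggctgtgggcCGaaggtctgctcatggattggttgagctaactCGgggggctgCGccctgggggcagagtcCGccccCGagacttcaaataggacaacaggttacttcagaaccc
Cldn6, chr17:23679115-23679364, plus strand: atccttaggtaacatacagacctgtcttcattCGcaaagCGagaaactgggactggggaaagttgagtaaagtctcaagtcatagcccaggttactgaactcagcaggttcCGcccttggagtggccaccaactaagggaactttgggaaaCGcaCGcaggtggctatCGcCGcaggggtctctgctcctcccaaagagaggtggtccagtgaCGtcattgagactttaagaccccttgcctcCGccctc
Cldn4, chr5:134946935-134947184, minus strand: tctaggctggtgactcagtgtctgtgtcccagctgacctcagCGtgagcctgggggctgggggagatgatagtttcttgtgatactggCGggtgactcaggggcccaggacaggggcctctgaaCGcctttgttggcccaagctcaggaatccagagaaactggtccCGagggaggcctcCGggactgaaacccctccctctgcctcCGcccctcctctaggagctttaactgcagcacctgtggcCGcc
Cldn3, chr5:134985964-134986213, plus strand: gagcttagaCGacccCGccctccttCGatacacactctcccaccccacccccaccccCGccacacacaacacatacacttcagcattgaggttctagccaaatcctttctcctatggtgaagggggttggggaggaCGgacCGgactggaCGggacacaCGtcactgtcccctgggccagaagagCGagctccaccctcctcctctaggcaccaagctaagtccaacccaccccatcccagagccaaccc
Cldn5 has 12 CpG sites in this window, Cldn6 has 9, Cldn3 has 9 and Cldn4 has 7. Over all 32851 RefSeq windows of this length, the median was 6 CpG sites and the quartiles were 2 and 16.

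Of the members, 8 matched the RefSeq promoter table, with 13 windows between them, and Cldn9 and Cldn23 did not match. Cldn7 has a pair of windows with 6 and 10 CpG sites, Cldn15 has 7, Cldn14 has 6 in each of 3 windows, and Cldn12 has 6, 16 and 20 in its 3 overlapping windows. All 13 thus held at least the median number. Letters were searched on both strands. The Grainyhead sequence AACCGGTT was in 0 of the 13 windows, against 0.116% of all windows. Its looser form AACNNGTT, which includes the stricter one, was in 1, that of Cldn5, against 3.64% of all. An E-box, CANNTG, was in 7 windows, against 66.2% of all, and lay near Cldn4, Cldn6, Cldn7, Cldn14 and Cldn15. The GC box GGGCGG was in 8, against 32.7%, and TATAAA was in 0, against 12.4%. Windows of the same gene overlap or share its locus, so these counts are a description of letters and of nothing bound to them.

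Cldn5, Cldn6 and Cldn7 were brighter in TKO than in WT cells by 3.49-fold, 3.26-fold and 3.31-fold, and Cldn3 and Cldn4 by less. Another background correction, normexp, which adds an offset of 50 intensity units and so shrinks dim signals, gave 2.69-fold, 2.30-fold and 3.12-fold for these 3, and centring arrays on their median gave 3.05-fold, 2.85-fold and 2.89-fold. Cldn9 was higher by a smaller amount, Cldn12 slightly lower, and Cldn14, Cldn15 and Cldn23 had dim signals that overlapped between the groups. The 3 TKO values lay above all WT values for 6 of the 10 members and below them for 1. Over all 21562 tested genes the groups did not overlap for 67.6%, with TKO higher for 33.5% and lower for 34.1%. By the adjusted p of 0.05, 6 members would count as higher and 0 as lower, where 59.7% of all genes were called, 30.0% higher and 29.7% lower. At a change of at least 2-fold as well, 3 members would count as higher, against 7.41% of all genes, and 0 as lower, against 6.25%. The members were chosen on this contrast, so nothing is read from these counts. The median difference of the members was 0.60, that of all tested genes -0.01.

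**Figure D1:**
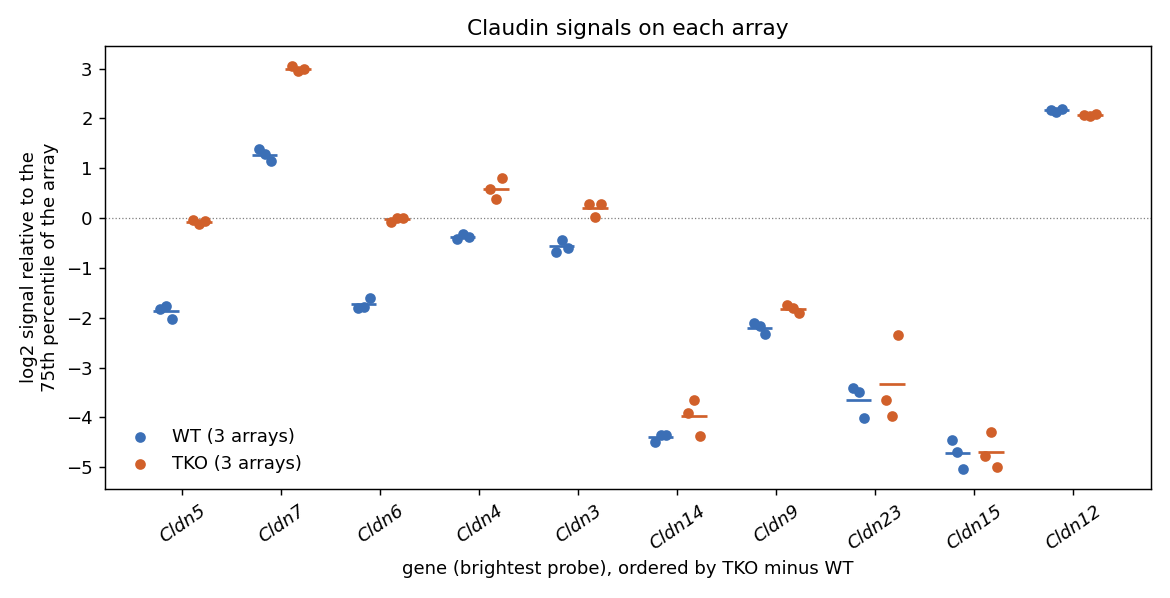
Log2 signal of the brightest probe of each claudin, relative to the 75th percentile of the array, in the 3 WT arrays (blue) and the 3 TKO arrays (orange), with a line at each mean. Points of Cldn5, Cldn6, Cldn7, Cldn4, Cldn3 and Cldn9 do not overlap between the groups and are higher in TKO, those of Cldn12 are slightly lower, and those of Cldn14, Cldn23 and Cldn15 overlap. Levels of different genes come from different probes and are not to be set against each other.

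Cldn5 is the sealing claudin best known from the endothelium of the blood-brain barrier. Its probe lies at chr16:18778046-18778105 on the plus strand (mm9, per the file headers). It gave -1.83, -1.77 and -2.02 in WT against -0.04, -0.11 and -0.06 in TKO dishes. All TKO values were higher than all WT values, and the TKO dishes spread less (SD 0.037) than the WT dishes (SD 0.129). The difference was 1.80 ± 0.073 (SE), which is 3.49-fold. Endothelial markers were read as well. Of 10 such markers, 8 were tested, of which 5 rose and 1 fell, and those named below are among the ones that rose. Over all tested genes, 30.0% were called higher and 29.7% lower. Their summed signal, most of it from Kdr, was 1120% to 1200% of the 75th percentile in WT and 1110% to 1190% in TKO dishes, and Cdh5 and Tie1 were not well above background on any array. Esam rose by 1.101 ± 0.117 (adjusted p = 0.000523), Tek by 1.99 ± 0.094 (adjusted p = 2.37e-05) and Flt1 by 1.56 ± 0.089 (adjusted p = 4.74e-05), where normexp gave 0.34 for Esam, 1.03 for Tek and 0.58 for Flt1. Their part in the Cldn5 difference was not tested.

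Cldn7, which lies on the basal and lateral membrane as well as at tight junctions of many epithelia and binds Epcam, gave 1.38, 1.28 and 1.14 in WT against 3.05, 2.95 and 2.99 in TKO dishes. The lowest TKO value was 1.57 above the highest WT value. The difference was 1.73 ± 0.071 (SE), or 3.31-fold, for the probe at chr11:69781255-69781314, plus strand (mm9).

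A further Cldn7 probe, at chr11:69778772-69778831 on the same strand (mm9), did not repeat this pattern. It gave -5.76, -5.09 and -5.56 in WT against -5.16, -5.19 and -5.01 in TKO dishes, and it was well above background on 1 WT array and on 0 TKO arrays. It is named for an Ensembl transcript, while the bright probe is named for the RefSeq messenger RNA. Its sequence lies within the promoter window of the downstream RefSeq start of Cldn7 on GRCm38.p6, from 151 to 92 bases before that start and on the same strand, as the capitals show.
Cldn7, chr11:69965171-69965420, plus strand: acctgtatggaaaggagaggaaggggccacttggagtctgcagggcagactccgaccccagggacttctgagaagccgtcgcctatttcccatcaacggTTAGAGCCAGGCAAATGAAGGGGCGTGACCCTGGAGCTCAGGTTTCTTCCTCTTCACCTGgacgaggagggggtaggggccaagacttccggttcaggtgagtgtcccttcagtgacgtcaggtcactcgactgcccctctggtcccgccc
The dim probe is thus placed upstream of that start and downstream of the other one, whose window ends at position 69964778. At this signal, RNA that holds those 60 bases was not detectable in TKO dishes, and no fold is given for it.

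Cldn6, a claudin of the early embryo and of pluripotent cells that falls silent in most adult tissues, read -1.81, -1.78 and -1.60 in the WT dishes. In the TKO dishes it read -0.08, -0.01 and 0.01. The groups were separated by 1.53, and the TKO dishes spread less (SD 0.045) than the WT dishes (SD 0.114). The difference was 1.71 ± 0.067 (SE), which is 3.26-fold, for the probe at chr17:23819027-23819086 on the plus strand (mm9).

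Cldn9, a claudin best known from the inner ear, is encoded next to Cldn6 on the opposite strand. Its probe at chr17:23820168-23820227 (mm9) lies 1.1 kb from that of Cldn6. It gave -2.11, -2.17 and -2.33 in WT against -1.74, -1.81 and -1.91 in TKO dishes. The groups did not overlap, and the gap between them was 0.21. Its difference of 0.39 ± 0.075 (SE; 1.31-fold) was smaller than that of Cldn6 in each TKO dish. With normexp background correction it was 0.18, with median centring 0.19 and with quantile normalization 0.26, in the same direction.

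Cldn4, a claudin of simple epithelia and a receptor for a bacterial enterotoxin, was measured by a pair of probes that gave like differences. The brighter probe, at chr5:135421347-135421406 on the minus strand (mm9), gave -0.42, -0.32 and -0.38 in WT against 0.59, 0.39 and 0.80 in TKO dishes. The other, at chr5:135422135-135422194, gave -1.19, -1.11 and -1.09 in WT against -0.23, -0.39 and -0.11 in TKO dishes. On both probes TKO replicate 2 was the lowest and TKO replicate 3 the highest of the TKO dishes, and neither overlapped with WT. In the fit over single probes, the differences were 0.96 ± 0.119 (SE; 1.95-fold) and 0.89 ± 0.092 (1.85-fold).

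Cldn3, a sealing claudin of many epithelia, gave -0.67, -0.44 and -0.59 in WT against 0.29, 0.03 and 0.28 in TKO dishes. TKO replicate 2 was again the lowest TKO dish, and its value was still 0.47 above the highest WT value. The difference was 0.77 ± 0.097 (SE; 1.70-fold) for the probe at chr5:135463284-135463342, plus strand (mm9), 41.9 kb from the Cldn4 probe.

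Cldn12, an atypical claudin without the motif by which most claudins bind ZO proteins, was bright in both groups and nearly level. It gave 2.17, 2.13 and 2.19 in WT against 2.07, 2.05 and 2.09 in TKO dishes. The TKO dishes were lower, and the gap between the groups was only 0.04. The difference was -0.10 ± 0.036 (SE), which puts the TKO level at 93.6% of the WT level, for the probe at chr5:5505223-5505282, minus strand (mm9). It stayed negative under every setting tried, between -0.29 and -0.08.

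Cldn14, Cldn15 and Cldn23 were close to the detection limit. Cldn14, known for a role in hearing and in the kidney, gave -4.49, -4.36 and -4.36 in WT against -3.92, -3.64 and -4.37 in TKO dishes. It was well above background on 3 WT and 2 TKO arrays, and TKO replicate 3 lay among the WT values. The difference was 0.43 ± 0.185 (SE), and 0.62 without TKO replicate 3. With normexp background correction it was 0.05.

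Cldn23 rested on a single dish. It gave -3.42, -3.49 and -4.02 in WT against -3.66, -3.97 and -2.34 in TKO dishes, with 3 WT and 2 TKO arrays well above background. TKO replicate 3 was the highest of the 6 and the other TKO dishes lay within the WT range. The difference of 0.32 ± 0.451 (SE) became -0.17 without TKO replicate 3.

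Cldn15, a pore-forming claudin of the gut, gave -4.45, -4.69 and -5.03 in WT against -4.78, -4.30 and -4.99 in TKO dishes. It was well above background on 2 WT arrays and 1 TKO array, the fewest that the filter accepts. The difference was 0.03 ± 0.227 (SE), between -0.16 and 0.18 over the settings, so no direction can be given. The wider negative controls of array row 2, which holds TKO replicates 2 and 3, bear on these 3 dim genes, and their part in the values was not tested.

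**Figure D2:**
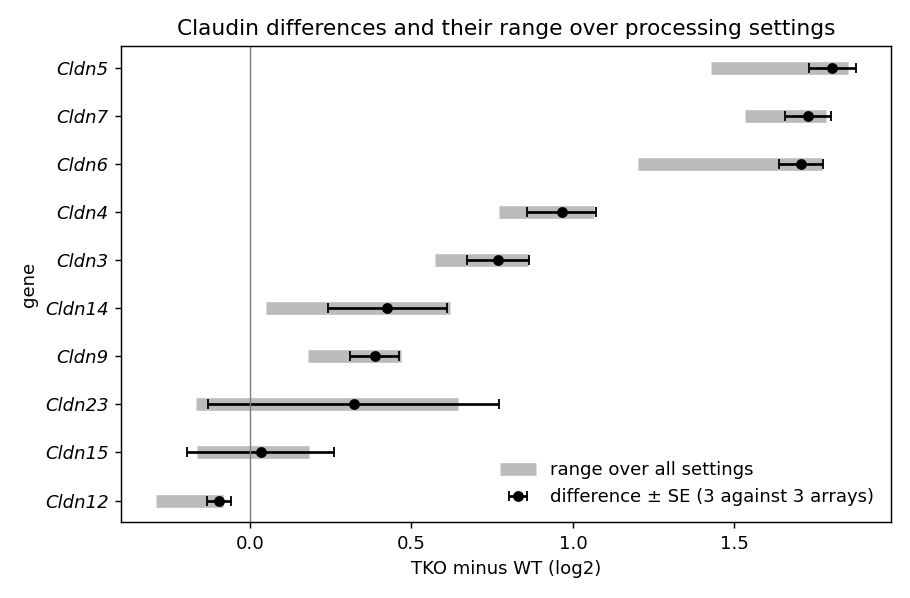
Difference between TKO and WT (log2, black points) of each claudin with its standard error from 3 against 3 arrays, and the range over all processing settings and left-out arrays (grey bars). The grey bars of Cldn5, Cldn6, Cldn7, Cldn4, Cldn3, Cldn14 and Cldn9 stay above 0, that of Cldn12 stays below 0, and those of Cldn23 and Cldn15 cross 0.

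The other claudin names on the array were hardly detected. Of 25 claudin names, 15 are not members, with 16 probes. Cldn17, Cldn20 and Cldn26 were well above background on 1 TKO array each and Cldn24 on 1 WT array, the nearest to the filter, which asks for 3 arrays. RefSeq assigns the Cldn26 probe to Tmem114. Cldn1, Cldn2, Cldn8, Cldn10, Cldn11, Cldn13, Cldn16, Cldn18, Cldn19 and Cldn22 were not well above background on any array. Cldn25, the remaining name, passed the filter and rose by 0.83 ± 0.055 (SE; adjusted p = 8.16e-05), from 0.94, 1.09 and 1.03 in WT to 1.83, 1.90 and 1.80 in TKO dishes. As its probe belongs to Cldnd1, a claudin-like protein, no claudin outside the members was measured above background on as many as 3 arrays.

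The probes of the members share little sequence. The longest run of bases common to probes of 2 different members was 13, between Cldn14 and Cldn9, and the next longest was 10. Signal shared between relatives was not measured.

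Genes next to the claudins were read from the same fit. The counts of neighbours below stand beside 30.0% of all tested genes called higher and 29.7% called lower. Cldn3 and Cldn4 lie in 1 cluster on chromosome 5. Within 100 kb of the Cldn3 probe, 7 other genes were tested, of which 1 rose and 1 fell. Wbscr27, 4.4 kb from the Cldn4 probe, rose by 0.26 ± 0.048 (adjusted p = 0.00494), while Abhd11, 24.5 kb from the Cldn3 probe, differed by -0.02 ± 0.070 (adjusted p = 0.812) and Wbscr28 by -0.03 ± 0.283 (adjusted p = 0.933). Dnajc30, named after its value was seen as the other call, fell by 0.48 ± 0.061 (adjusted p = 0.00108). The call of Wbscr27 was lost with median centring, at 0.07.

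Around Cldn6 and Cldn9, 14 genes were tested within 100 kb, of which 6 rose and 5 fell. Nearest to the pair, Tnfrsf12a differed by 0.06 ± 0.035 (adjusted p = 0.171), Hcfc1r1 fell by 0.27 ± 0.041 (adjusted p = 0.00208), Thoc6 rose by 0.37 ± 0.051 (adjusted p = 0.00165) and Ccdc64b rose by 1.31 ± 0.084 (adjusted p = 7.25e-05), or 0.60 with normexp. The call of Thoc6 was lost with median centring, at 0.17. The brightest probe of 1520401A03Rik fell by 0.37 ± 0.055 (adjusted p = 0.00206), but the mean of its probes was higher by 0.15, so no direction is given. Another tested probe within 50 kb, A_55_P2169332, has no gene name and differed by -0.15 ± 0.049 (adjusted p = 0.0415), a call lost when any dish but WT replicate 3 was left out. Calls at this locus went in both directions, as they did over all tested genes.

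Genes around Cldn5 had small differences. Of 6 genes within 100 kb, 1 rose and none fell, and the nearest, the replication gene Cdc45 at 29.4 kb, differed by 0.06 ± 0.049 (adjusted p = 0.33). Their median difference was 0.03, against 1.80 for Cldn5.

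Cldn7 lies in a region and on a chromosome whose genes were mostly higher. The median difference was 0.34 over 1615 tested genes of chromosome 11, 0.39 over 195 genes within 5 Mb and 0.38 over 16 genes within 100 kb, of which 12 rose and 3 fell. Elp5, whose probe lies 0.5 kb from the bright Cldn7 probe, rose by 0.34 ± 0.059 (adjusted p = 0.00396). Within 50 kb, Ybx2, Phf23, Acadvl, Dvl2 and Gabarap also rose, by 0.26 to 0.92, Slc2a4 fell by 0.92 ± 0.060 (adjusted p = 7.94e-05), and Ctdnep1 differed by 0.08 ± 0.075 (adjusted p = 0.409). With median centring the calls of Elp5 (0.15), Acadvl (0.36), Dvl2 (0.20) and Gabarap (0.07) were lost, that of Gabarap also without WT replicate 2 or 3 or TKO replicate 2 or 3. The Cldn7 difference of 1.73 was larger than the regional median, and the part of the chromosome in it was not tested.

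The other members gave less. Gtpbp10, near Cldn12, rose by 0.33 ± 0.047 (adjusted p = 0.00176) while Cldn12 was slightly lower. Chaf1b and Morc3, near Cldn14, rose by 0.37 ± 0.032 (adjusted p = 0.000242) and 0.31 ± 0.041 (adjusted p = 0.00141). With median centring the calls of Gtpbp10 (0.14), Chaf1b (0.17) and Morc3 (0.11) were lost. Near Cldn15, 11 features were tested, of which 2 rose and 6 fell. Within 50 kb of it, Plod3 fell by 0.25 ± 0.047 (adjusted p = 0.00549), a call lost with the array row fitted. Fis1 and Znhit1 differed by -0.06 ± 0.039 (adjusted p = 0.262) and 0.00 ± 0.045 (adjusted p = 0.998). Of 4 probes there without a gene name, 3 fell. These 3 lie on the plus strand between positions 137412766 and 137412962 (mm9) and are named for overlapping regions. They may read the same RNA, and the 6 that fell count each of them. No other gene was tested within 100 kb of Cldn23, whose chromosome 8 had a median of -0.22 and whose 5 Mb surroundings had a median of 0.00. On chromosomes 5, 16 and 17, which hold the other members, the medians lay between -0.03 and -0.01.

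**Figure D3:**
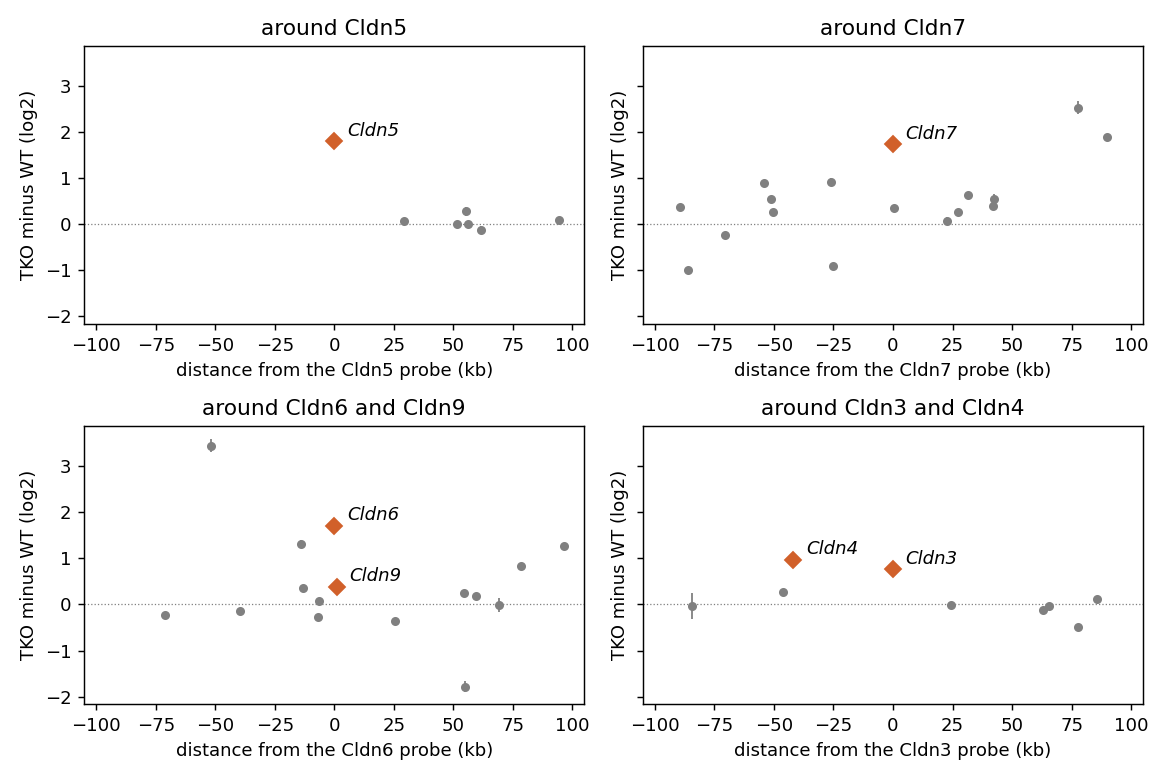
Difference between TKO and WT (log2, with its standard error) of tested genes within 100 kb of 4 claudin loci, against the distance of their probes from that of the named claudin in kb. Orange diamonds are claudins and grey points are other genes. Neighbours of Cldn5 lie between -0.12 and 0.28, those of Cldn3 between -0.48 and 0.26, those of Cldn7 mostly above 0, and those of Cldn6 and Cldn9 on both sides.

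Of 15 other membrane proteins of tight junctions, all tested, 9 rose, 4 fell and 2 did not pass the threshold, where 30.0% of all tested genes were called higher and 29.7% lower. Their median difference was 0.85, and 0.40 with normexp. Ocln, the tetraspan protein occludin, rose by 1.40 ± 0.116 (adjusted p = 0.000195). It gave -2.66, -2.61 and -2.98 in WT against -1.23, -1.39 and -1.43 in TKO dishes, without overlap. Clmp, an adhesion molecule of the immunoglobulin type, rose by 3.09 ± 0.145 (adjusted p = 2.37e-05), Crb3, the apical polarity protein, by 1.59 ± 0.066 (adjusted p = 1.61e-05) and Bves by 1.42 ± 0.043 (adjusted p = 6.07e-06). With normexp these were 0.78 for Ocln, 1.97 for Clmp and 0.78 for Bves, all still called.

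Ildr1, a protein of the corners where 3 cells meet, fell by 1.098 ± 0.046 (adjusted p = 1.7e-05), and the junctional adhesion molecule Jam2 fell by 0.37 ± 0.039 (adjusted p = 0.00055). Igsf5 fell by 1.34 ± 0.336 (adjusted p = 0.0168), a call that was lost without WT replicate 2 or TKO replicate 1, and was -0.43 with normexp. Cxadr fell by 0.24 ± 0.069 (adjusted p = 0.0256), and this call was lost when any of the 3 WT dishes was left out or the array row was fitted. With the mean of its probes Cxadr differed by -0.93 and Jam2 by -0.62. F11r, Lsr and Marveld2 are named here after their values were seen, from among the genes of this list that rose. They rose by 0.27 ± 0.052 (adjusted p = 0.00621), 0.85 ± 0.038 (adjusted p = 2.07e-05) and 1.18 ± 0.113 (adjusted p = 0.000341). Marveld3 and Ildr2, which did not pass the threshold, differed by 0.10 ± 0.121 (adjusted p = 0.505) and 0.65 ± 0.394 (adjusted p = 0.208). The call of F11r was lost with median centring, at 0.07, and with the array row fitted, and Marveld2 was 0.76 with normexp.

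Of the plaque and polarity proteins beneath the membrane, 25 of 27 were tested, and 15 rose, 3 fell and 7 did not pass, with a median of 0.31. The shares over all tested genes were 30.0% higher and 29.7% lower. With median centring of the arrays 8 rose and 4 fell, with a median of 0.11, and with normexp the median was 0.19. Tjp1 and Tjp3, named after their values were seen because they hold claudins by their tails, differed by 0.17 ± 0.048 (adjusted p = 0.0281) and 0.90 ± 0.061 (adjusted p = 9.2e-05). Tjp1 has no settled direction, since it was -0.03 with median centring and its call was lost when any dish but TKO replicate 3 was left out. Cgn, cingulin, rose by 1.01 ± 0.042 (adjusted p = 1.69e-05). Its relative Cgnl1 was well above background on 0 WT arrays and on all 3 TKO arrays, at least 3.05-fold higher, a bound set by the dimmest signal still above background. With normexp its difference was 0.44, or 1.36-fold, below that bound. Amot rose by 1.52 ± 0.069 (adjusted p = 2.19e-05) and the scaffold Magi1 by 1.33 ± 0.045 (adjusted p = 8.5e-06).

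Micall2, which takes part in the transport of junction proteins, fell by 1.08 ± 0.098 (adjusted p = 0.000276), and the polarity protein Pard6g fell by 0.86 ± 0.031 (adjusted p = 1.05e-05). Pard3, which works with it, fell by 0.30 ± 0.060 (adjusted p = 0.00699) on its brightest probe. With the mean of its probes Pard3 was higher by 0.34, so its probes disagree and no direction is given for the gene. Pard3 lies on chromosome 8, whose tested genes had a median difference of -0.22, and the part of the chromosome in its values was not tested.

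Among 20 tested genes of epithelial adhesion and claudin processing, of 21, 12 rose, 7 fell and 1 did not pass, with a median of 0.44, and 0.24 with median centring. Epcam, which binds Cldn7 and steadies it, rose by 2.05 ± 0.083 (adjusted p = 1.47e-05). It gave -0.33, -0.18 and -0.37 in WT against 1.75, 1.64 and 1.88 in TKO dishes, with no overlap. The groups did not overlap for 67.6% of all tested genes, with TKO higher for 33.5% and lower for 34.1%. St14, the protease that cleaves Epcam, fell by 0.27 ± 0.076 (adjusted p = 0.0261), a call that was lost when WT replicate 2, WT replicate 3, TKO replicate 2 or TKO replicate 3 was left out and when the array row was fitted. Spint1, an inhibitor of that protease, fell by 0.86 ± 0.056 (adjusted p = 7.47e-05).

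Esrp1, a splicing regulator of epithelial cells, rose by 2.30 ± 0.050 (adjusted p = 2.72e-06). Wnk4, a kinase that phosphorylates claudins, rose by 1.45 ± 0.056 (adjusted p = 1.29e-05), or 0.40 with normexp, and the keratin Krt18 by 1.35 ± 0.036 (adjusted p = 4.55e-06). The desmosome gene Dsp fell by 1.71 ± 0.089 (adjusted p = 3.42e-05) and the keratin Krt19 by 1.12 ± 0.102 (adjusted p = 0.000284). Wnk4 and Krt19 lie on chromosome 11, whose tested genes had a median difference of 0.34. The part of the chromosome in their differences was not tested. Calls in this list went in both directions, as they did over all tested genes, with 30.0% higher and 29.7% lower.

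Of 21 transcription factors known to act on claudin or epithelial genes, 18 were tested, and 6 rose, 8 fell and 4 did not pass. The shares over all tested genes were 30.0% higher and 29.7% lower. The median of the list was 0.03, which was -0.17 with median centring and -0.01 with normexp background or quantile normalization. Grhl2, a Grainyhead factor known to act on claudin genes, rose by 2.31 ± 0.064 (adjusted p = 4.87e-06). It gave -1.24, -1.16 and -1.20 in WT against 0.99, 1.13 and 1.20 in TKO dishes, with no overlap. Its relatives differed in direction, with Grhl1 up by 0.99 ± 0.038 (adjusted p = 1.3e-05) and Grhl3 down, where it fell by 1.12 ± 0.1004 (adjusted p = 0.000263). Elf3 rose by 1.04 ± 0.085 (adjusted p = 0.000179). Cdx2 was well above background on 0 WT arrays and on all 3 TKO arrays, at least 3.62-fold higher, where normexp gave a difference of 0.68, below that bound.

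Hnf4a fell by 4.27 ± 0.090 (adjusted p = 2.62e-06), Tfap2a by 1.92 ± 0.091 (adjusted p = 2.43e-05) and Klf4 by 1.06 ± 0.039 (adjusted p = 1.08e-05). The list holds 5 repressors of epithelial genes, named after their values were seen, which did not share a direction. Zeb1 fell by 0.67 ± 0.038 (adjusted p = 4.74e-05), Snai2 rose by 0.33 ± 0.076 (adjusted p = 0.0111), and Snai1, Zeb2 and Twist1 differed by 0.04 ± 0.061 (adjusted p = 0.563), 0.59 ± 0.215 (adjusted p = 0.0593) and 0.38 ± 0.285 (adjusted p = 0.298). The call of Snai2 was lost with median centring, at 0.14, and its difference was 0.16 with normexp.

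Of 11 claudin-like tetraspan proteins, 9 were tested, of which 3 rose and 5 fell, with a median of -0.37, and -0.57 with median centring. The shares over all tested genes were 30.0% higher and 29.7% lower. Besides Cldn25, Pmp22 rose by 0.97 ± 0.058 (adjusted p = 5.7e-05) and Emp3 by 0.70 ± 0.085 (adjusted p = 0.000907). Tmem235 fell by 2.29 ± 0.133 (adjusted p = 5.06e-05), Emp1 by 1.11 ± 0.045 (adjusted p = 1.49e-05), Tmem47 by 0.89 ± 0.074 (adjusted p = 0.000189) and Perp, a protein of desmosomes, by 0.37 ± 0.034 (adjusted p = 0.000275). With normexp Pmp22 was 0.61, Tmem235 -1.46 and Tmem47 -0.46, with median centring Perp was -0.57, and the mean of its probes gave 0.43 for Pmp22. Pmp22 and Tmem235 lie on chromosome 11 too, and its part in their differences was not tested.

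**Figure D4:**
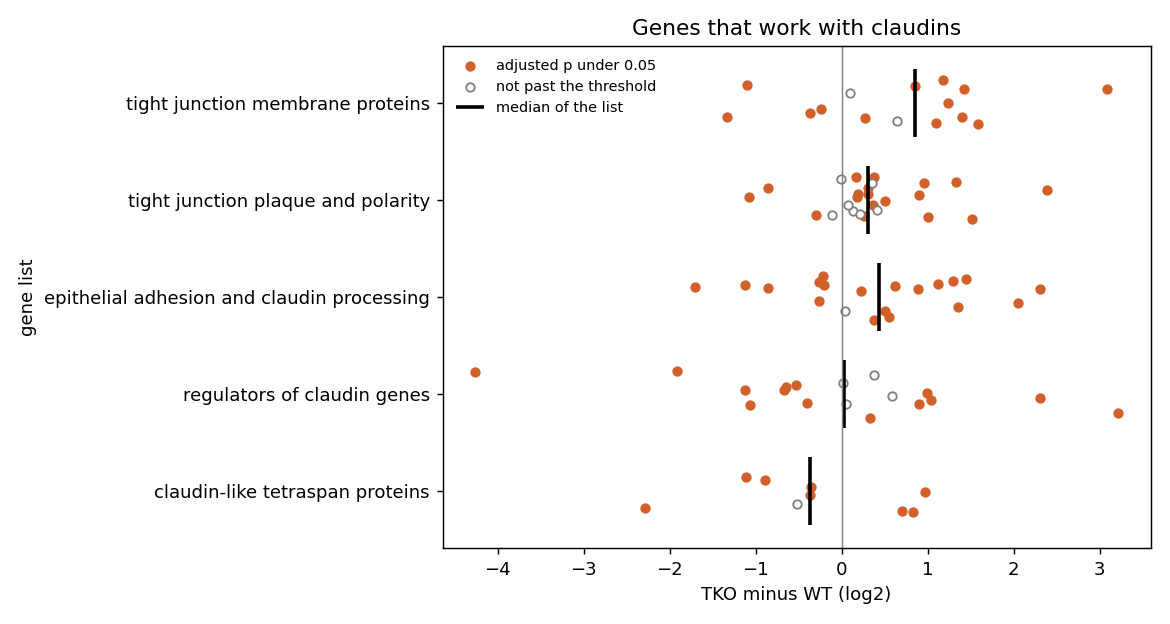
Difference between TKO and WT (log2) of every tested gene in 5 lists of genes that work with or resemble claudins. Filled points passed an adjusted p of 0.05 in limma, open points did not, and the black bar is the median of each list, which lies at 0.85 for tight junction membrane proteins, 0.31 for plaque and polarity proteins, 0.44 for epithelial adhesion, 0.03 for regulators and -0.37 for the tetraspan proteins.

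Markers of other cell types that express claudins moved as well. The dishes hold mixed RNA, so fewer cells of a type and less RNA per cell cannot be told apart. Of 10 trophectoderm markers, 9 were tested, of which 8 rose and 1 fell. Over all tested genes, 30.0% were called higher and 29.7% lower. Their summed signal was 2930% to 2960% of the 75th percentile in WT and 5750% to 5850% in TKO dishes, most of it from Krt18, Tfap2c and Ascl2, and 3 of them, Cdx2 and Hand1 included, were above background on 0 WT arrays. Gata3 rose by 2.98 ± 0.098 (adjusted p = 7.81e-06), or 1.62 with normexp. The marker that fell was Eomes, by 0.74 ± 0.043 (adjusted p = 4.93e-05), and it was well above background on every array. Cdx2, Krt8, Krt18 and Tfap2c stand in the lists above too.

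Fibroblast markers, which feeder cells carry, were tested for 10 of 12, and 8 rose and none fell. Here and for the markers below, the shares over all tested genes were 30.0% higher and 29.7% lower. Their sum was 2840% to 2930% in WT and 4380% to 4620% in TKO dishes, and Lum was not well above background on any array. Acta2, which gave the largest part of the rise in the sum, rose by 1.20 ± 0.059 (adjusted p = 2.88e-05). Its signal was 653% to 741% in WT and 1540% to 1640% in TKO dishes. The other called fibroblast markers rose by 0.27 to 0.66. With median centring 3 rose. Of 9 tested primitive endoderm markers, of 11, 3 rose and 4 fell, without a shared direction, and Afp and Ttr were not well above background on any array. Their sum was 3270% to 3460% in WT and 1010% to 1140% in TKO dishes. It follows a single gene, Lama1, which fell by 1.76 ± 0.057 (adjusted p = 7.5e-06). Hnf4a, which stands among the regulators above too, fell by 4.27 ± 0.090 (adjusted p = 2.62e-06). Sox7 rose by 1.26 ± 0.269 (adjusted p = 0.00896), or 0.53 with normexp, a call lost with the array row fitted. Markers of stratified and gut epithelium summed to 681% to 748% in WT and 613% to 657% in TKO dishes, with 3 of 6 up and 2 down. Of the embryonic stem cell markers, 1 rose and 6 fell, the most being Zfp42, which fell by 4.07 ± 0.049 (adjusted p = 1.09e-06), and their sum was 94900% to 102000% in WT and 72000% to 78300% in TKO dishes. The part of these cell types in the claudin differences was not tested.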

How the data were processed

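RNA of 3 WT and 3 TKO dishes was read on 1 slide. The scanner output came from Agilent Feature Extraction 11.5.1.1 (credited to the submitters' processing notes). Going by the columns' names per the file headers, the deposited processed signal is an intensity on a linear scale, background-subtracted within each array and not scaled between arrays. The deposited flags (well above background, saturated, outlier) are 0 or 1, another unit. The authors also deposited a table that matched log2 processed signals shifted so that the 75th percentile of each column is 0 (r = 1; column medians -3.97, -3.97 and -4.03 for WT and -3.9, -3.74 and -3.82 for TKO). Its scale and centring are not stated in the sources used here.

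Control and outlier spots were left out, spots of a probe averaged, and the 75th percentile of each array subtracted from log2 signals. Probes well above background on at least 3 of 6 arrays were kept (30734), each gene was read from its brightest kept probe (21562 genes), and limma 3.58.1 in R 4.3.3 (lmFit, eBayes, two-sided, Benjamini-Hochberg, threshold 0.05) was fitted to all of them. The fit was tested on simulated data. Positions are mm9 (756 probes have none), and promoters are RefSeq, GRCm38.p6. A bound on a fold sets the bright mean against the dimmest signal above background.

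The members and gene lists were chosen with earlier results of these data known. Named were all members and other tested claudins, up to 4 higher and 4 lower called genes of each of 5 lists, tested neighbours within 50 kb, Tet genes and up to 3 genes of each marker list. Some results are not reported here. Alternatives were normexp background, quantile or median scaling, other filters, the mean of probes, the deposited table, blocks and left-out arrays. With 6 arrays, the number of arrays limits precision.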

Additional observations from a re-analysis of the deposited data

How the results depend on the processing

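The median difference of the 10 claudins, 0.60, was 0.43 with normexp background, 0.40 with median centring and 0.96 when probes had to be above background on all 6 arrays, which leaves 7 members. It lay between 0.57 and 0.75 when each array was left out, the highest without TKO replicate 2. Median centring shifted the median of all genes from -0.01 to -0.20, and the genes called higher fell from 6464 to 3874, with 9315 lower in place of 6398. Without a filter on dim probes the median of all genes was 0.14, and 6 other claudin names passed in place of 1, of which Cldn10, Cldn18, Cldn20, Cldn22 and Cldn26 were above background on at most 1 array. Pard3 reversed to 0.34 with the mean of its probes, where the cause was not tested. Same-numbered WT and TKO dishes deviated with correlations of -0.07, -0.02 and 0.01, so they share only a number. With the replicate number as a block the claudin median was 0.60, 11619 genes were called in place of 12862, and 66 genes of the 5 lists in place of 72 (Cxadr and St14 were among those lost). Within array row 1 alone, with 1 TKO dish assumed to vary like the WT dishes, the median of the 10 claudins was 0.67.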
